A study of Mus musculus with 2 samples.

Results

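C1q-expressing cells were selected from lung cells that had been sorted for a Zbtb46-driven fluorescent reporter, and they came to 139 of the 12968 cells that passed the filters. A cell was selected when it held at least 3 UMIs (unique molecular identifiers, one per captured transcript) of C1qa, C1qb and C1qc together, so measured values chose the cells and the C1q levels below are a description. Cells with any UMI of the alveolar macrophage genes Atp6v0d2, Ear1, Krt19 and F7, of the type 1 classical dendritic cell (cDC1) genes Xcr1 and Clec9a or of the maturation gene Ccr7 were left out, as were cells with 1% or more of their UMIs from the neutrophil genes S100a8 and S100a9. The adult pools 1 and 2 gave 21 and 21 such cells, and the neonatal pools 1 and 2 gave 47 and 50.

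All mice were zbtb46-cre x rosa26-yfp. Cre is made from the locus of Zbtb46, a transcription factor of classical dendritic cells, and it turns on YFP for good, so a marked cell may have expressed Zbtb46 only in the past. Adult mice were 8 weeks old and neonatal mice 7 days old, and each age gave 2 pools of 5 or more mice, from which live cells positive for CD45.2 and YFP were taken. The series labels its cells as dendritic cells. The pool was the replicate, so n = 2 per age throughout. Fold changes are adult over neonatal or C1q-expressing over comparison cells, on the log2 scale. The value after ± stands in for a standard error. It is the size of the log2 fold change divided by the square root of the F statistic of its edgeR test. It can look small beside a p-value that does not pass, as for Retnla below, so the adjusted p decides.

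C1q is the recognition part of the classical complement pathway, built from the A, B and C chains that C1qa, C1qb and C1qc encode. It binds antibody complexes and dying cells, and tissue macrophages are its main source. In the lung, interstitial macrophages of the airways, vessels and alveolar walls make C1q, while alveolar macrophages, classical dendritic cells and circulating monocytes make little. In mice, lung interstitial macrophages are divided into cells with Lyve1, Folr2 and Mrc1 and cells with Cx3cr1 and high MHC class II.

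The chain genes lie side by side on the reverse strand of mouse chromosome 4 (GRCm38, GENCODE M21): C1qb at chr4:136880129-136886187, C1qc at chr4:136889804-136893065 and C1qa at chr4:136895917-136898803. Mrc1, the mannose receptor CD206 that takes up glycoproteins, lies on the forward strand of chromosome 2. The promoter windows of C1qb and C1qc are shown because their transcripts were counted together to find the cells and ran together among them. Each holds 250 bases before to 50 after the start site (RefSeq, GRCm38.p6, reverse strand), C1qb at chr4:136886151-136886450 and C1qc at chr4:136892865-136893164. Capitals mark TGCTGA, a half-site bound by Maf factors, and GAGGAA, the core bound by the ETS factor PU.1, searched on both strands. The match in C1qc lies on the opposite strand and so appears as its complement, read backwards.
C1qb: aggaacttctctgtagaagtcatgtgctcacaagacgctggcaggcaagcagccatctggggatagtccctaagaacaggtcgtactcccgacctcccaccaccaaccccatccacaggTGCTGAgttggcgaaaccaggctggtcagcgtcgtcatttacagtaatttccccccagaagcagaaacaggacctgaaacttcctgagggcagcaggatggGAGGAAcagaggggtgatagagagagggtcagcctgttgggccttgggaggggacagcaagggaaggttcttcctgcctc
C1qc: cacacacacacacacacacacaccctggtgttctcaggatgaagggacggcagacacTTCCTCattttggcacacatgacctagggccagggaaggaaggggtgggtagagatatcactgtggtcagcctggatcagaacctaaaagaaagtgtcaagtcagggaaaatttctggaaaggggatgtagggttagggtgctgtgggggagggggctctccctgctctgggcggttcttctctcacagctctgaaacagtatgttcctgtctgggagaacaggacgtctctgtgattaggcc
The C1qb window held both motifs and the C1qc window the ETS core. Of the 32851 promoter windows in the table, 19.5% held the Maf half-site, 28.3% the ETS core and 5.36% both, and a match describes letters, not binding.

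C1q transcripts were unevenly spread over the selected cells. The cells of adult pools 1 and 2 held 316 and 739 C1q UMIs, and those of neonatal pools 1 and 2 held 572 and 1041. The median cell had 7 and 18 UMIs in the adult pools, against 6 and 11 in the neonatal pools, and the highest cell had 40 and 170 in the adult pools, against 91 and 72 in the neonatal pools. The 5 highest cells supplied 61.4% and 71.6% of the C1q UMIs of the adult pools, against 44.9% and 31.3% in the neonatal pools. A few cells thus carried much of the C1q of each pool, and the pools hold different numbers of cells, so these shares are not ranked.

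C1qb was the most abundant chain in every pool, and its share was lower in adult than in neonatal pools. It gave 48.7% and 42.6% of C1q UMIs in the adult pools, against 56.3% and 53.5% in the neonatal pools. C1qa gave 33.5% and 40.2% in the adult pools, against 27.6% and 28.6% in the neonatal pools. The pools of the ages did not overlap for these chains, but their shares are parts of 1 total and move against each other. This is therefore 1 contrast, on genes that chose the cells and with few cells carrying much of the C1q, and it is a description. C1qc gave 16.1% to 17.9% in all 4 pools. All 3 chains were seen in 68 of the 139 cells, 2 chains in 36 and 1 chain in 35. As fractions of each cell's UMIs, the chains ran together over 42 adult and 97 neonatal cells. Spearman's rho was 0.81 in adult and 0.71 in neonatal cells for C1qa with C1qc. It was 0.72 and 0.66 for C1qa with C1qb, and 0.67 and 0.67 for C1qb with C1qc. This is a description across cells that share libraries and depth.

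**Figure D1:**
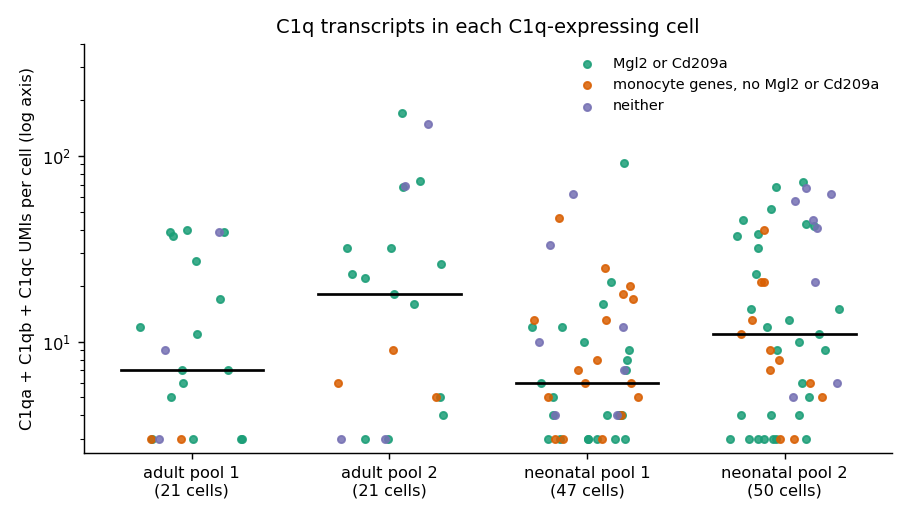
C1q UMIs (C1qa, C1qb and C1qc summed, log axis) in each selected cell by pool, coloured by whether the cell also held Mgl2 or Cd209a, monocyte gate genes without these, or neither, with the median of each pool as a line. Cells of every colour reach high counts in the neonatal pools, and the medians are 7 and 18 in the adult pools, against 6 and 11 in the neonatal pools.

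Cells that should lack C1q seldom held 3 or more C1q UMIs, though not in every gate. In the neutrophil gate, with median depths of 1600 to 1721 UMIs, 0 cells of any pool held 3 or more C1q UMIs, which allows shares of up to 0.516% to 0.732%. In the cDC1 gate, where median depths of 7017 to 8764 UMIs exceeded those of the selected cells, 0 and 0 cells reached 3 UMIs in the adult pools (shares of up to 1.21% and 1.74%), against 0.133% and 0.414% of cells in the neonatal pools. In the Ccr7 gate such cells made up 0.583% in neonatal pool 2 and 0 cells elsewhere. In the small NK cell gate, 1 of 254 cells of adult pool 1 (0.394%) and 1 of 35 cells of neonatal pool 1 (2.86%, exact interval 0.0723% to 14.9%) reached 3 UMIs, the last above the 1.04% of selected cells in its pool. Just inside the threshold, 11 adult and 19 neonatal cells held exactly 3 C1q UMIs, and just outside it 8 adult and 26 neonatal cells held 2. Ms4a7 was at 0 CPM (the gene's UMIs scaled to a common total of all UMIs) in the cells with exactly 3 C1q UMIs at both ages, against 140 and 108 CPM in adult and neonatal cells with 10 or more. Mrc1 was at 338 and 48.4 CPM in the adult and neonatal cells with 3, against 334 and 242 CPM in those with 10 or more.

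The name of macrophage fitted only some of the cells. Mrc1 was detected in 49 of the 139, Csf1r, the receptor for macrophage colony-stimulating factor, in 105, and Lyve1, Folr2, Pf4 or Cd163, which mark resident interstitial macrophages, in 28. Mgl2 or Cd209a, lectin genes that also mark type 2 classical dendritic cells (cDC2) and monocyte-derived dendritic cells, were detected in 83. A UMI of the monocyte gate genes Ly6c2, Ace, Adgre4, Cd300e or Treml4 was detected in 46. Flt3 or Zbtb46, which define classical dendritic cells, was detected in 13 (14.3% and 4.76% of the cells of adult pools, against 8.51% and 10% of neonatal pools). Of the 663 C1q-negative Cd209a or Mgl2 cells described below, 145 held Mrc1, 275 Csf1r and 102 Lyve1, Folr2, Pf4 or Cd163. The last share was 19.6% and 18.2% in adult and 14.3% and 12.6% in neonatal pools. In C1q-expressing cells it was 14.3% and 33.3% in adult and 12.8% and 24.0% in neonatal pools. Mrc1 or these 4 genes alone were thus not particular to C1q-expressing cells. The cells are therefore called C1q-expressing cells here.

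Split by these genes, 3 subsets carried different transcripts. The split was made after the values were seen and carries no test. Cells with Mgl2 or Cd209a (30 adult, 53 neonatal) held the chemokine gene Ccl17 in 40.0% of adult and 50.9% of neonatal cells, while 0 of the other 56 cells did. They also held the elastase gene Mmp12 in 40.0% of adult and 45.3% of neonatal cells, and Fcrls, an Fc receptor-like gene, in 56.7% and 66.0%. They were rich in MHC class II, with H2-Aa at 11289 CPM in adult and 6227 CPM in neonatal cells. These cells supplied 71.5% of the adult and 51.3% of the neonatal C1q UMIs.

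Cells with monocyte gate genes but neither Mgl2 nor Cd209a were 5 adult and 29 neonatal cells. They held the monocyte gene Plac8 in 100% of adult and 79.3% of neonatal cells, and Apoe, which encodes a lipid carrier, in 60.0% and 100%. The 29 neonatal cells held Maf, a transcription factor of macrophages, in 62.1% and H2-Aa at 708 CPM. Their C1q came to 2353 CPM, close to the 2167 CPM of neonatal cells with Mgl2 or Cd209a.

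Cells with none of these genes were 7 adult and 15 neonatal cells. Their summed C1q level was the highest of the subsets, 7967 CPM in adult and 6965 CPM in neonatal cells, but the adult level rested on 3 cells with 39, 69 and 149 C1q UMIs, while the other 4 held 3 to 9. Per cell, the median was 9 C1q UMIs in adult and 21 in neonatal cells of this subset, against 16.5 and 7 in adult and neonatal cells with Mgl2 or Cd209a. Pf4, a chemokine gene of resident macrophages, was detected in 42.9% of the adult and 66.7% of the neonatal cells of this subset, against 3.33% and 1.89% of those with Mgl2 or Cd209a. The 15 neonatal cells also held Maf in 73.3%, Mrc1 in 73.3% and the eosinophil-attracting chemokine gene Ccl24 in 40.0%. Their median depth, 3614 UMIs in adult and 3779 UMIs in neonatal cells, was the lowest of the 3 subsets.

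**Figure D2:**
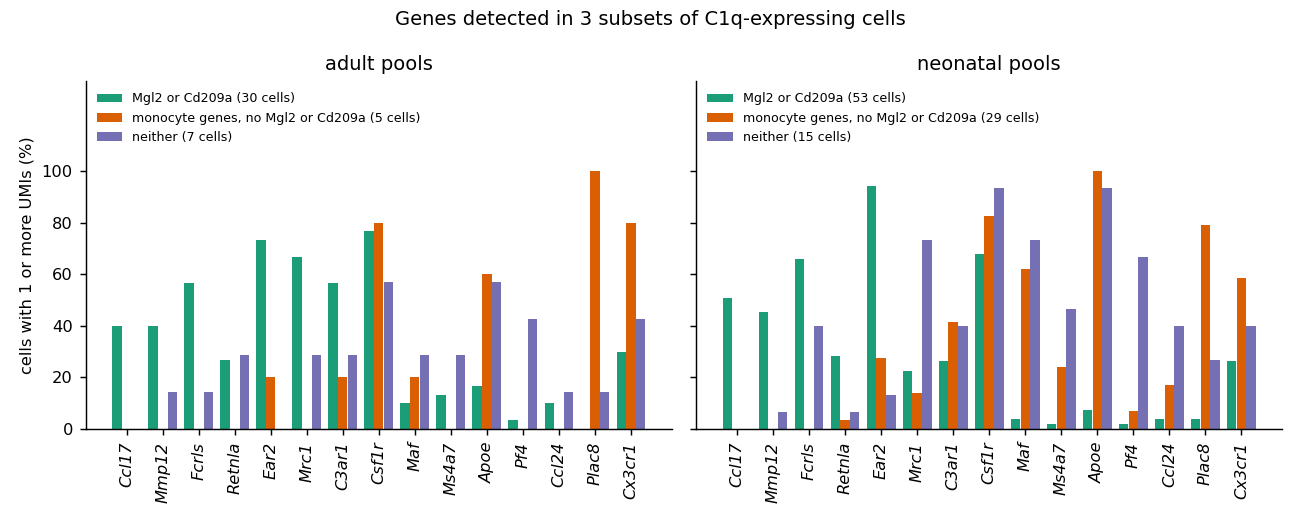
Percent of cells with at least 1 UMI of each gene, in adult pools (left panel) and neonatal pools (right panel), for C1q-expressing cells with Mgl2 or Cd209a, with monocyte gate genes without these, and with neither. Ccl17 is seen in the first subset alone, Plac8 is most frequent in the second, and Pf4 in the third.

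The mix of subsets differed between the adult and neonatal pools at hand, which was not tested, and each age result below holds for the mix. Cells with Mgl2 or Cd209a made up 76.2% and 66.7% of the C1q-expressing cells of the adult pools, against 48.9% and 60.0% of the neonatal pools. Cells with monocyte genes alone made up 9.52% and 14.3% in the adult pools, against 36.2% and 24.0% in the neonatal pools. Cells with neither made up 14.3% and 19.05% in the adult pools, against 14.9% and 16% in the neonatal pools. The pools of the ages did not overlap for the first 2 subsets, which 2 pools per age can also show without a difference. A UMI of the division genes Mki67 or Top2a was found in 0 and 1 cells of the adult pools, against 8 and 8 cells of the neonatal pools.

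The share of C1q-expressing cells among all sorted cells overlapped between the ages under the filters used throughout. It was 1.02% and 1.12% in the adult pools, against 1.04% and 1.10% in the neonatal pools, with exact Clopper-Pearson 95% intervals of 0.635% to 1.56% and 0.697% to 1.71% in the adult and 0.765% to 1.38% and 0.820% to 1.45% in the neonatal pools. The means were 1.07% ± 0.071 in adult and 1.07% ± 0.045 in neonatal pools (SD, n = 2 each; two-sided exact permutation p = 1, where the smallest p that 2 against 2 pools can give is 0.333). When cells with neutrophil, NK, T and B cell markers were left out of the total, the share was 1.96% and 2.25% in the adult pools, against 1.28% and 1.44% in the neonatal pools (exact permutation p = 0.333). With a stricter cell filter it was 1.47% and 1.54% in the adult pools, against 1.24% and 1.24% in the neonatal pools (exact permutation p = 0.333). In both cases the pools of the ages did not overlap, so that the answer rests on which cells are counted.

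Depth per cell overlapped between ages, while mitochondrial share, loading and sex did not. C1q-expressing cells had median depths of 6592 and 7206 UMIs in the adult pools, against 5647 and 6631 in the neonatal pools. The median mitochondrial share was 2.14% and 2.33% in the adult pools, against 2.96% and 2.83% in the neonatal pools. Their summed UMIs came to 143443 and 146277 in the adult pools, against 272871 and 320062 in the neonatal pools. Predicted doublets came to 0 among them, 0 shared a barcode with another pool, out of 14 shared barcodes in the whole table, and 0 held over 20% of the other hashtag. Xist, the RNA of the inactive X chromosome of females, was at 0 and 0 CPM in adult pools, against 678 and 606 CPM in neonatal pools. The pools of 1 age were also loaded together, per the labels, so age, sex and loading channel cannot be told apart. Of other cell types, T cell markers summed to 0 and 0 CPM in the adult pools, against 21.99 and 9.37 CPM in the neonatal pools. Endothelial markers summed to 6.97 and 13.7 CPM in the adult pools, against 43.98 and 49.99 CPM in the neonatal pools. NK cell markers were uneven, at 885 and 109 CPM in the adult pools, against 366 and 46.9 CPM in the neonatal pools.

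C1q-expressing cells of adult lungs carried more MHC class II, more immediate early transcripts and more of several lectin and surface genes than those of neonatal lungs, and less Maf, Hmox1, Fabp5 and Lgals1. Of 3225 genes tested, 157 (4.87%) were called at an adjusted p under 0.05, 123 higher (3.81%) and 34 lower (1.05%) in adult cells. Without neonatal pool 1 or without neonatal pool 2, edgeR called 0 genes, with 224 and 214 genes at an unadjusted p under 0.05. The called genes that were tested without these pools kept their direction there, 157 of 157 and 156 of 156. DESeq2 called 64 genes, of which 62 were among the 157. Among the called genes, the single highest cell held a median of 8.54% and at most 38.8% of the UMIs of the higher age. These shares are of the summed UMIs of both pools of that age, and within 1 pool a share could be larger. For Ecm1, the highest cell held 13 of 15 UMIs in adult pool 1 and 19 of 34 in adult pool 2. For Cd72 it held 7 of 23 and 11 of 21 UMIs in these pools, and for Glipr1 5 of 25 and 16 of 32.

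The MHC class II genes rose together in adult cells. Of 17 genes for MHC class II presentation, 12 were tested and 5 rose, with 0 falling and a median log2 difference of 0.71, against 0.0023 over all genes tested. H2-Aa, a chain of the class II molecule, was at 10415 and 9202 CPM in adult pools, against 4225 and 4359 CPM in neonatal pools (log2 1.37 ± 0.07, adjusted p = 2.54e-11). H2-Eb1 was at 12381 and 9701 CPM in adult pools, against 4046 and 4387 CPM in neonatal pools (log2 1.57 ± 0.09, adjusted p = 8.76e-08). H2-Ab1, Cd74, the invariant chain, and H2-DMb1, a peptide-loading subunit, rose by log2 1.19 ± 0.07, 1.10 ± 0.08 and 0.64. Adult and neonatal pools did not overlap for any of these, as for 50.8% of all genes tested. At least 10 UMIs of the 3 class II chains were found in 90.5% and 90.5% of the cells of adult pools, against 57.4% and 66.0% in neonatal pools.

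Immediate early genes, which respond within minutes to signals and to tissue dissociation, were the list with the most called members. Of 28 tested, 14 rose and 0 fell in adult cells, with a median log2 difference of 0.77. Fos was at 2133 and 1695 CPM in adult pools, against 671 and 622 CPM in neonatal pools (log2 1.74 ± 0.13, adjusted p = 6.23e-09). Egr1 was at 767 and 745 CPM in adult pools, against 161 and 231 CPM in neonatal pools (log2 2.11 ± 0.21, adjusted p = 5.82e-07). Junb and the growth-arrest gene Btg2 rose by log2 1.64 ± 0.12 and 1.96 ± 0.17, and Atf3 by 1.49 ± 0.32. Fos was also higher in adult than neonatal C1q-negative cells, at 1349 and 1311 against 577 and 501 CPM in those with Cd209a or Mgl2, and the part of the loading channel in this was not tested.

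Single lectin genes rose in adult cells, while the list of scavenger receptors and uptake lectins had a median log2 difference of -0.32 over its 13 tested members. Cd209a, a C-type lectin of the DC-SIGN family, was at 544 and 431 CPM in adult pools, against 84.3 and 71.9 CPM in neonatal pools (log2 2.82 ± 0.25, adjusted p = 8.76e-08). Mgl2, a galactose lectin, rose less, by log2 0.75 ± 0.13 (adjusted p = 0.00101), and lost its call without cells holding monocyte gate genes (log2 0.36, adjusted p = 0.135). Mrc1 was at 342 and 301 CPM in adult pools, against 91.6 and 181 CPM in neonatal pools (log2 1.39 ± 0.28, adjusted p = 0.00343). The Mrc1 call was lost without cells holding monocyte gate genes (log2 1.15, adjusted p = 0.0804), without cells holding Mki67 or Top2a (1.21, adjusted p = 0.0897) and at 5 or more C1q UMIs (0.97, adjusted p = 0.0847). These were the 3 of the list that rose, and 0 fell.

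The tetraspanin Cd81, a marker of MHC class II-high interstitial macrophages, was at 314 and 438 CPM in adult pools, against 58.6 and 68.7 CPM in neonatal pools (log2 2.72 ± 0.28, adjusted p = 8.98e-07), and was detected in 14 and 17 of 21 cells in adult pools, against 9 of 47 and 13 of 50 in neonatal pools. Cd72, an inhibitory lectin of B cells and macrophages, had the steepest rise among the named genes, with 160 and 144 CPM in adult pools, against 3.66 and 25.0 CPM in neonatal pools (log2 3.46 ± 0.49, adjusted p = 7.72e-05). It was found in 8 and 5 cells of the adult pools, against 1 and 5 of the neonatal pools. Of the markers fixed for these interstitial macrophages, 3 of 9 tested rose, Cd81 and Cd72 among them, and 0 fell.

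Macrophage identity genes split in direction. Of 18 tested, 4 rose, among them Cd14, Mrc1 and the lysozyme gene Lyz2, and 1 fell, with a median of 0.02. Maf was at 20.9 and 47.9 CPM in adult pools, against 132 and 166 CPM in neonatal pools (log2 -1.92 ± 0.44, adjusted p = 0.0114). Maf was found in 2 and 4 cells of the adult pools, against 14 and 17 of the neonatal pools. DESeq2 did not call it (adjusted p = 0.1475). Cd14, the co-receptor for lipopolysaccharide, rose by log2 1.71 ± 0.26 (adjusted p = 0.000224). Csf1r (195 and 362 CPM in adult pools, against 414 and 406 CPM in neonatal pools) and Apoe (1520 and 5428 CPM in adult pools, against 3734 and 4477 CPM in neonatal pools) did not pass the test. A single cell held 588 of the 794 Apoe UMIs of adult pool 2, and another 113 of the 218 of adult pool 1.

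Other genes that rose in adult cells included the cell cycle inhibitor Cdkn1a, at 397 and 731 CPM in adult pools, against 73.3 and 87.5 CPM in neonatal pools (log2 2.98 ± 0.29, adjusted p = 1.49e-06). Pltp, the phospholipid transfer protein, was at 300 and 670 CPM in adult pools, against 73.3 and 131 CPM in neonatal pools (log2 2.40 ± 0.45, adjusted p = 0.0331). Ecm1, Hepacam2, Stap1, Glipr1, Smim3 and Cd2 completed the 12 largest rises, at log2 2.02 to 3.33. Of chemokines, cytokines and receptors, Ccl6 rose by log2 1.05 ± 0.17, Cxcl16 by 1.17 ± 0.28, Il1b by 1.69 ± 0.28, Tnfsf12 by 1.66 ± 0.45 and Ccr2, the receptor that monocytes use to leave the marrow, by 0.83 ± 0.14. Without cells holding Mki67 or Top2a, Ccl6, Cxcl16 and Tnfsf12 were not called (adjusted p = 0.14, 0.103 and 0.156), and without cells holding monocyte gate genes Pltp and Il1b were not (adjusted p = 0.0936 and 0.246). Of 28 lysosomal genes tested, 4 rose (Hexa, Cst3, Npc2 and Ctsh, log2 0.56 to 0.89) and 0 fell. None of 8 complement genes, 7 Fc receptor genes and 12 genes for clearing dead cells was called by edgeR (6 of them had an unadjusted p under 0.05) or by DESeq2 (0 calls). Some edgeR alternatives did call members. The Fc receptor gene Fcgr4 was called at log2 -2.49 without the low-count filter (adjusted p = 0.025), and Axl, a receptor for dying cells, at 1.16 in cells with Mgl2 or Cd209a (adjusted p = 0.0165). Fcrls was called at 0.85 with the replicate block (adjusted p = 0.0441). C3ar1, the C3a receptor, was at 76.7 and 157 CPM in adult pools, against 69.6 and 112 CPM in neonatal pools.

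Single genes of fatty acid, haem and carbohydrate binding were lower in adult cells, while their lists went both ways (lipid genes 2 higher and 1 lower of 12 tested, iron and haem genes 1 higher and 1 lower of 8). Fabp5, a fatty acid binding protein, was at 97.6 and 47.9 CPM in adult pools, against 612 and 459 CPM in neonatal pools (log2 -2.69 ± 0.31, adjusted p = 3.47e-06). Hmox1, which breaks down haem, was at 55.8 and 41.0 CPM in adult pools, against 304 and 209 CPM in neonatal pools (log2 -2.21 ± 0.37, adjusted p = 0.00045). Lgals1, the lectin galectin-1, fell by 1.33 ± 0.16 on the log2 scale (adjusted p = 1.09e-05), with 383 and 369 CPM in adult pools, against 1099 and 1044 CPM in neonatal pools. Cks1b, a cell cycle kinase subunit, was at 6.97 and 13.7 CPM in adult pools, against 88.0 and 125 CPM in neonatal pools (log2 -3.13 ± 0.60, adjusted p = 0.00215). The intermediate filament gene Nes, the creatine synthesis gene Gatm and the monocyte gene Adgre4 also fell, and each was detected in 1 to 3 cells of an adult pool. Of 7 cell cycle genes tested, only Hmgb2 was called, and it fell by 1.49 ± 0.33 on the log2 scale. Without cells holding Mki67 or Top2a neither gene was called, with Hmgb2 at log2 -0.56 (adjusted p = 0.497) and Cks1b at -2.34 (adjusted p = 0.128).

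**Figure D3:**
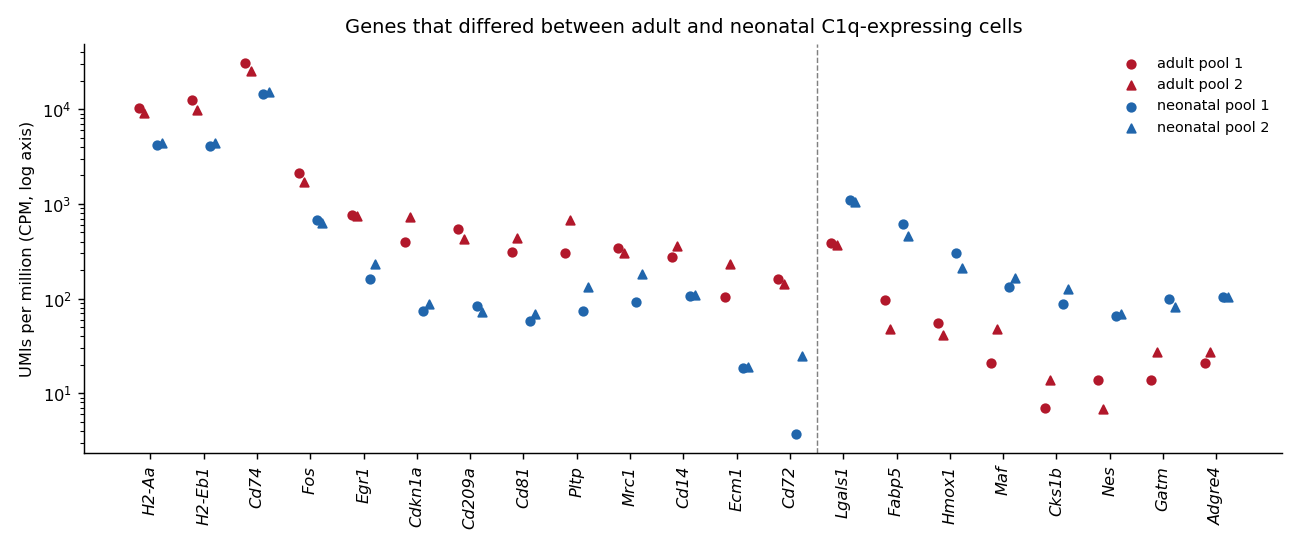
CPM (log axis) of 21 genes in the C1q-expressing cells of adult pools (red) and neonatal pools (blue), circles for pool 1 and triangles for pool 2. Left of the dashed line both adult points lie above both neonatal ones, and right of it both lie below.

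Much of the age difference was also seen among cells with Mgl2 or Cd209a alone, a restriction added after the data were seen. With these 30 adult and 53 neonatal cells, 191 of 2127 genes were called, and 113 of the 148 tested genes among the 157 were called in the same direction. H2-Aa rose by log2 1.02, Cd81 by 2.52, Mrc1 by 2.27 and Cdkn1a by 3.60 in these cells, with adjusted p values of 8.14e-10, 1.34e-05, 5.87e-05 and 0.000139. Fabp5 fell by 2.36 on the log2 scale (adjusted p = 0.000306). Il1b was no longer called (log2 0.59, adjusted p = 0.32), and Maf and Hmox1 were too low there to be tested. In these cells Maf was at 27.1 CPM in adult and 20.9 CPM in neonatal cells, so its fall was not seen. Hmox1 was at 36.1 CPM in adult and 49.7 CPM in neonatal cells. With cells holding Mki67 or Top2a left out instead, 124 genes were called, 109 of them among the 157 in the same direction.

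A few genes were very high in few cells. Retnla, the secreted resistin-like protein of alternatively activated macrophages, was at 6957 and 13516 CPM in adult pools, against 1539 and 1122 CPM in neonatal pools (log2 3.13 ± 0.56, adjusted p = 0.188). It was found in 5 and 5 cells of adult pools, against 6 and 11 of neonatal pools, and a single cell held 1491 of its 1977 UMIs in adult pool 2. Ccl24 was at 27.9 and 13.7 CPM in adult pools, against 1437 and 509 CPM in neonatal pools (log2 -5.33 ± 1.39, adjusted p = 0.273), where 8 and 5 cells held it and single cells held 296 of 392 and 131 of 163 UMIs. For these genes edgeR made no call, while DESeq2 did (adjusted p = 1.21e-07 for Retnla and 1.47e-05 for Ccl24).

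C1q-expressing cells differed widely from monocyte-marker cells of the same pools. The comparison cells were the 4164 cells with at least 2 UMIs of the monocyte gate genes and with 0 UMIs of C1q, Mgl2 and Cd209a, which leaves lectin-bearing cells out on 1 side only. Of 7989 genes, 1637 (20.5%) were called, 810 higher (10.1%) and 827 lower (10.4%) in C1q-expressing cells. Without neonatal pool 2 the count was 997. Median depths were 5647 to 7206 UMIs in C1q-expressing cells, against 2908 to 3445 UMIs in monocyte-marker cells, and with each cell thinned to 1000 UMIs 479 genes were called, 441 of them among the 1637 in the same direction.

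The genes with the largest rises over monocyte-marker cells included secreted factors and uptake genes. Retnla was 6957, 13516, 1539 and 1122 CPM in C1q-expressing cells of adult pools 1 and 2 and neonatal pools 1 and 2, against 5.13, 2.71, 1.06 and 0.79 CPM in monocyte-marker cells of the same pools (log2 11.10 ± 0.25, adjusted p = 8.1e-10). Mrc1 was 342, 301, 91.6 and 181 CPM in C1q-expressing cells, against 2.80, 0.90, 1.48 and 2.76 CPM (log2 6.66 ± 0.30, adjusted p = 2.66e-14). Dab2, an endocytic adaptor, was 112, 109, 136 and 356 CPM in C1q-expressing cells, against 0.47, 0, 1.69 and 2.17 CPM (log2 7.23 ± 0.34, adjusted p = 4.48e-14). Fcrls, Ccl24, Adra2a, Ccl17, Mmp12, Gfra2 and Blnk completed the 10, at log2 7.44 to 8.56. The gate bears on these rises too, since cells with Mgl2 or Cd209a were left out of the comparison cells alone. Among C1q-expressing cells, Ccl17 was seen only in those with the lectins. Fcrls and Mmp12 were at 0 CPM in those with monocyte genes alone. Against C1q-negative Cd209a or Mgl2 cells, Fcrls did not pass (log2 0.87, adjusted p = 0.068). C3ar1 was higher by log2 5.07 ± 0.42 and Rbpj, the DNA-binding factor of Notch signalling, by 3.21 ± 0.17.

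Of 14 tested MHC class II presentation genes 10 rose and 0 fell, with a median log2 of 3.59 against -0.02 over all genes tested, and of 12 chemokine genes 7 rose and 0 fell. Of 8 cDC2 markers tested, 7 rose and 1 fell. Cells with the cDC2 lectins Mgl2 or Cd209a were left out of the comparison cells alone, while 83 of the 139 C1q-expressing cells held them. This count is therefore a description, and the same gate bears on the MHC class II and chemokine counts. Of macrophage identity genes 7 of 18 rose and 4 fell. The 4 were Sirpa, Csf1r, Lyz2 and Pla2g7, chosen for naming after their values were seen, with Csf1r lower by 0.85 on the log2 scale (log2 -0.85).

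Genes of monocytes were lower in C1q-expressing cells. The comparison cells were chosen by 2 or more UMIs of monocyte genes, which 34 of the 139 C1q-expressing cells meet, so these counts are a description. Of 8 tested nonclassical monocyte markers, 7 fell and 0 rose, and of 9 classical monocyte markers 5 fell and 2 rose. Pglyrp1, an antibacterial peptidoglycan binder, was 0, 0, 33.0 and 28.1 CPM in C1q-expressing cells, against 429, 404, 679 and 750 CPM in monocyte-marker cells (log2 -4.88 ± 0.29, adjusted p = 3.27e-11). Spn, the sialomucin CD43, was 13.9, 0, 21.99 and 25.0 CPM in C1q-expressing cells, against 374, 368, 241 and 269 CPM (log2 -3.94 ± 0.30, adjusted p = 9.08e-10). Cx3cr1 fell by 1.53 ± 0.18 and Nr4a1, the factor that nonclassical monocytes need, by 1.81 ± 0.16 on the log2 scale. Bmx and Tgm3 had 0 UMIs in C1q-expressing cells and were at least 8.30-fold and 6.93-fold lower (3 counts over all pools as the floor). Of 27 interferon-stimulated genes tested, 9 fell and 0 rose.

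The C1q-negative cells with Cd209a or Mgl2 had median depths of 6304 to 7806 UMIs. Set against them, the C1q-expressing cells were richer in macrophage, lysosome and iron genes and poorer in cDC2 genes. The comparison cells were 663 cells with at least 2 UMIs of these lectins and 0 UMIs of C1q. The gate is on 1 side only, since 56 of the 139 C1q-expressing cells held neither lectin, so the differences also hold those between cells with and without the lectins. Of 5786 genes, 440 (7.60%) were called, 215 higher (3.72%) and 225 lower (3.89%). Without neonatal pool 1 the count was 247, and without neonatal pool 2 it was 211.

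Of 17 macrophage identity genes tested, 11 rose and 0 fell, with a median log2 of 1.81 against -0.0037 over all genes tested. Ms4a7, a tetraspan gene of tissue macrophages, was 20.9, 123, 98.9 and 84.4 CPM in C1q-expressing cells of adult pools 1 and 2 and neonatal pools 1 and 2, against 3.58, 1.31, 0.50 and 0 CPM in Cd209a or Mgl2 cells (log2 5.99 ± 0.56, adjusted p = 5.56e-07). Maf rose by log2 4.65 ± 0.44, Cd14 by 2.48 ± 0.21, Fcgr1, the high-affinity IgG receptor CD64, by 2.81 ± 0.36, and Csf1r by 1.81 ± 0.18. Among neonatal C1q-expressing cells, those with Mgl2 or Cd209a had Ms4a7 at 15.7, Maf at 20.9 and Hmox1 at 49.7 CPM. Neonatal cells with monocyte genes alone had them at 196, 324 and 539 CPM, and those with neither at 304, 527 and 815 CPM, so that the neonatal cells without the lectins were the higher ones. Adult cells with the lectins had them at 72.2, 27.1 and 36.1 CPM. The 5 adult cells with monocyte genes alone had 0, 29.7 and 59.4 CPM, and the 7 with neither had 145, 86.9 and 116 CPM. For Ms4a7 and Cd14 each pool's C1q-expressing cells lay above all 4 sums of the comparison cells.

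Lysosomal genes rose in 15 of 29 tested and fell in 1, among them Cd63 by log2 3.25 ± 0.32 and the protease Ctsd by 2.36 ± 0.23. The gene that fell was Cst3, by 1.42 on the log2 scale (named after its value was seen). Of 10 tested iron and haem genes 6 rose and 0 fell. Hmox1 was 55.8, 41.0, 304 and 209 CPM in C1q-expressing cells, against 5.97, 9.14, 7.47 and 4.89 CPM (log2 4.56 ± 0.40, adjusted p = 1.11e-05), and Slc11a1, the metal transporter of phagosomes, rose by log2 3.63 ± 0.41. Lpl, lipoprotein lipase, rose by log2 2.66 ± 0.20 and the neutrophil-attracting chemokine gene Cxcl2 by 3.01 ± 0.18.

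Of 10 tested cDC2 markers, 7 fell and 0 rose, a count that the selection of the comparison cells by cDC2 lectins bears on and that is given as a description. Flt3, the growth factor receptor of classical dendritic cells, was 6.97, 0, 10.99 and 0 CPM in C1q-expressing cells, against 70.4, 67.9, 53.8 and 66.5 CPM (log2 -3.80 ± 0.50, adjusted p = 2.32e-05). Zbtb46 was 13.9, 6.84, 3.66 and 15.6 CPM in C1q-expressing cells, against 45.4, 45.7, 46.8 and 50.9 CPM (log2 -2.28 ± 0.41, adjusted p = 0.000609). Klrd1 fell by 2.78 ± 0.28 and the lectin Clec10a by 1.83 ± 0.18 on the log2 scale. Sept3, of the cDC1 marker list, had 0 UMIs in C1q-expressing cells and was at least 14.4-fold lower. That list went both ways, with 3 of 8 tested genes lower and 2 higher. The 2 were Irf8, by log2 1.22 ± 0.22, and Cd36, by 2.34 ± 0.31. The antigen presentation list went both ways, with 2 of 14 genes higher and 6 lower, and H2-Aa did not pass the test (log2 -0.63 ± 0.14, adjusted p = 0.113), though it did so after thinning and with a filter of at least 10 UMIs in 2 sums. Mrc1 and Apoe did not pass either (log2 1.35 ± 0.77 and 5.53 ± 1.08).

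**Figure D4:**
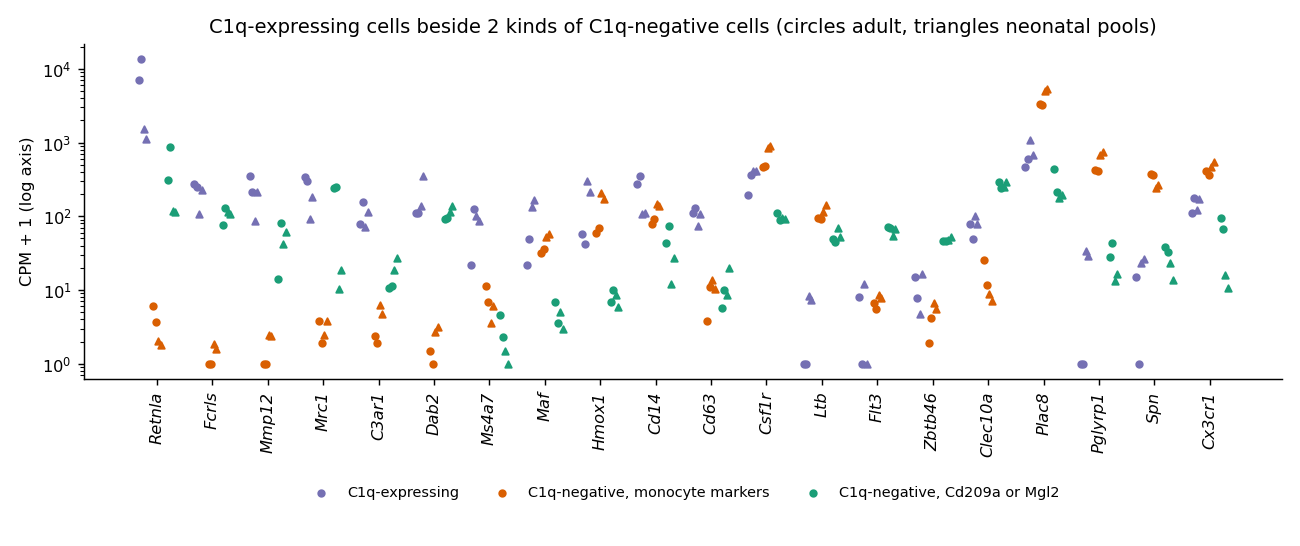
CPM + 1 (log axis) of 20 genes in C1q-expressing cells, C1q-negative monocyte-marker cells and C1q-negative Cd209a or Mgl2 cells, with circles for the adult and triangles for the neonatal pools. Ms4a7 and Cd14 lie above the Cd209a or Mgl2 cells in every pool, while Pglyrp1 and Spn lie below the monocyte-marker cells in every pool.

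The age difference of C1q-expressing cells was set against that of monocyte-marker cells in an interaction test, which called 152 of 8944 genes (1.70%), 79 with a higher (0.883%) and 73 with a lower (0.816%) adult over neonatal ratio in C1q-expressing cells. Without neonatal pool 2 the count was 90. Cd81 went opposite ways, at 314 and 438 CPM in adult and 58.6 and 68.7 CPM in neonatal C1q-expressing cells, against 15.4 and 16.3 CPM in adult and 95.1 and 84.3 CPM in neonatal monocyte-marker cells. Its log2 differences differed by 5.07 ± 0.34 (adjusted p = 5.82e-23). Cd14 and Ccl6 also had larger adult over neonatal ratios in C1q-expressing cells, by log2 2.33 ± 0.30 and 1.31 ± 0.17. MHC class II rose with age in both, and by a larger ratio in monocyte-marker cells, where H2-Aa was at 619 and 591 CPM in adult pools, against 116 and 91.2 CPM in neonatal pools (difference of log2 differences -1.33 ± 0.12, adjusted p = 1.15e-15). Of 16 MHC class II genes tested, 6 had a lower and 0 a higher ratio in C1q-expressing cells, and of 32 immediate early genes 6 had a higher and 0 a lower one. After thinning to 1000 UMIs per cell, Cd81 and H2-Aa kept their calls (5.03 and -1.27), while Cd14, Ccl6 and the immediate early genes Egr1, Fos and Btg2 did not (2.08, 0.78, 1.03, -0.0114 and 0.55).

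With Cd209a or Mgl2 cells in place of the monocyte-marker cells, a comparison added after the data were seen, 43 genes of 6857 were called. Mrc1 had the smaller age ratio in C1q-expressing cells, since Cd209a or Mgl2 cells were at 240 and 252 CPM in adult pools, against 9.47 and 17.6 CPM in neonatal pools (difference of log2 differences -2.91 ± 0.34, adjusted p = 4.44e-06). Egr1 had the larger ratio in C1q-expressing cells (2.09 ± 0.22, adjusted p = 7.7e-07), as Cd209a or Mgl2 cells held 462 and 558 CPM in adult pools, against 589 and 532 CPM in neonatal pools. Cdkn1a likewise had the larger ratio (2.15 ± 0.30, adjusted p = 4.22e-05), and H2-Aa a slightly larger one (0.45 ± 0.10, adjusted p = 0.0166). Fos and Cd81 did not pass this test (0.27 ± 0.15 and -0.38 ± 0.38).

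**Figure D5:**
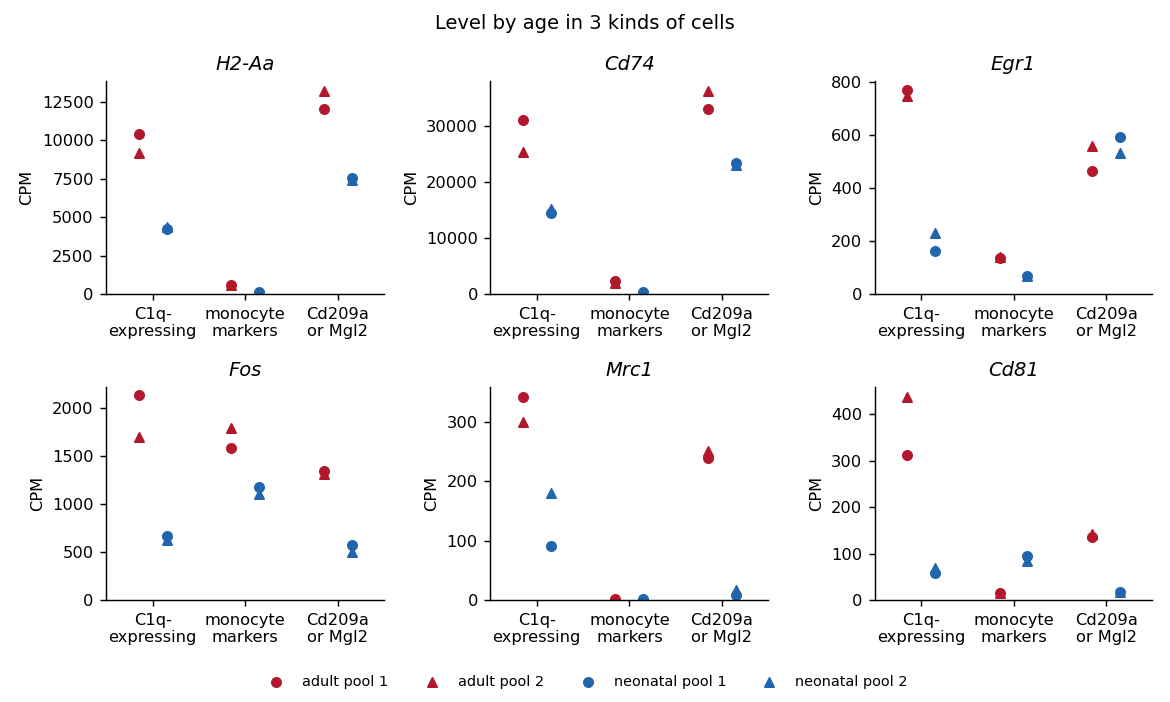
CPM of 6 genes in C1q-expressing cells, C1q-negative monocyte-marker cells and C1q-negative Cd209a or Mgl2 cells, adult pools in red left of neonatal pools in blue, circles for pool 1 and triangles for pool 2. Cd81 is higher in adult pools in C1q-expressing and Cd209a or Mgl2 cells and lower in adult pools in monocyte-marker cells, and Mrc1 in Cd209a or Mgl2 cells shows the widest age ratio of that gene.

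C1q-expressing cells with an alveolar macrophage gene were too few to compare, with 0 and 1 in the adult pools and 1 and 1 in the neonatal pools. The cell of adult pool 2 and that of neonatal pool 1 each held 1 UMI of F7. The cell of neonatal pool 2 held 7 UMIs of Atp6v0d2, 3 of Ear1, 2 of Krt19 and 1 of F7 beside 12 of C1q.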

How the data were processed

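Single-cell RNA was measured in 2 adult and 2 neonatal pools with a droplet 3' kit. The deposited table holds raw UMI counts of 32285 genes and 2 hashtag features for 14710 barcodes, aligned to mm10 with Cell Ranger 6.1.2, and Seurat 4.2.0 is also named, per the submitters' processing notes. The barcode suffix gave the pool. Cells had at least 500 genes, 1000 UMIs and at most 10% mitochondrial UMIs. The selected cells and the gene lists were chosen with earlier results of these data known.

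The counts of each pool's cells were added up within a class (at least 10 cells) and tested with edgeR 4.0.16 (quasi-likelihood F test, filterByExpr, TMM normalization, robust fit) in R 4.3.3, with Benjamini-Hochberg adjustment over all genes tested and calls at 0.05. Genes used to select cells were left out, and comparisons between classes had the pool as a block. CPM values are untransformed sums over a pool's cells. Shares were compared by an exact permutation test. Intervals and floors cover counting error only. Scanpy 1.11.5 marked doublets (Scrublet), which stayed in except in 1 alternative. Alternatives were DESeq2 1.42.0, other size factors and filters, other C1q limits, left-out cell kinds, thinning to 1000 UMIs and left-out pools. The steps were tested on simulated data.

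Genes were named as the 12 largest changes in each direction with age, or the 10 largest against another class, among called genes with at least 20 CPM and non-overlapping pools, without predicted, haemoglobin, immunoglobulin, T cell receptor and sex-linked genes, and up to 4 genes per list by p. Pools of 1 age share a library preparation, so p-values measure the spread between these pools.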

Additional observations from a re-analysis of the deposited data

Results flagged for a closer look

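An interaction test found that the adult over neonatal difference was not the same in C1q-expressing cells as in monocyte-marker cells for 152 genes. The values below are the log2 difference in C1q-expressing cells minus that in monocyte-marker cells, over 2 pools per age.

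The genes with the larger adult over neonatal ratio in C1q-expressing cells included surface and secreted proteins. Cd81 differed by 5.07, Cd14 by 2.33, the chemokine gene Ccl6 by 1.31 and the cytokine gene Il1b by 1.27. The immediate early genes Egr1, Fos and Btg2 differed by 0.98, 1.03 and 1.20. With C1q-negative Cd209a or Mgl2 cells as the comparison, Cd81, Cd14 and Il1b were at -0.38, -0.14 and -0.11 and were not called, nor were Ccl6, Fos and Btg2 (0.19, 0.27 and 0.48), while Egr1 was called at 2.09. After thinning to 1000 UMIs per cell, Cd81 kept its call (5.03) and Fos was at -0.0114 without one.

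MHC class II genes had the smaller ratio in C1q-expressing cells, with Cd74 at -1.42, H2-Aa at -1.33 and H2-Ab1 at -1.15. Against Cd209a or Mgl2 cells these were 0.36, 0.45 and 0.37, with H2-Aa called. Lgals1 was at -2.01 and Hmgb2, a chromatin protein of dividing cells, at -1.40. Ms4a6c, a tetraspan gene of monocytes, was at -1.37, with 335 and 355 CPM in adult C1q-expressing cells, against 399 and 447 CPM in neonatal ones, and 1021 and 1054 CPM in adult monocyte-marker cells, against 478 and 485 CPM in neonatal ones. The part of sex and loading channel in these differences was not tested.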

How the results depend on the processing

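The age comparison called 157 genes, and 64 with DESeq2, 63 with at least 5 C1q UMIs per cell and 23 of 500 with cells thinned to 1000 UMIs, while leaving out 1 pool gave 0 to 227. Without the low-count filter the split was 118 higher and 116 lower, against 123 and 34. The replicate block gave 215 calls, but pools of the same number did not deviate together (r = 0.0041 over 3229 genes, 2 pairs), so the numbers are not a pairing. Against monocyte-marker cells 1637 genes were called, 479 after thinning and 997 to 1477 with a pool left out. Against Cd209a or Mgl2 cells 440 were called, 58 after thinning and 211 to 575 with a pool left out. The interaction called 152 genes, 53 after thinning (4 higher, 49 lower), 90 to 118 with a pool left out and 43 against Cd209a or Mgl2 cells.

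Among named genes, Apoe and Csf1r, which were not called with age, changed sign. Apoe was 0.0083 with at least 10 UMIs in 2 sums, 0.89 without monocyte gate genes and 1.71 in cells with Cd209a or Mgl2. With a pool left out, Apoe ran from -1.23 without adult pool 2 to 0.61 without adult pool 1, so its direction rested on single adult pools. Csf1r was 0.13 and 0.32 in those same restrictions of cells and -0.87 to 0.0277 with a pool left out, and C3ar1 was -0.063 to 0.97. In the interaction, Fos was -0.0114 after thinning. Against Cd209a or Mgl2 cells Cd81 was -0.38, Cd14 -0.14, Cd74 0.36, H2-Aa 0.45, H2-Ab1 0.37 and Il1b -0.11. The cause of these changes was not tested. The adult minus neonatal share of cells, 0.00215 percentage points, was 0.271 with the stricter cell filter, 0.149 after thinning, -0.0807 with at least 2 C1q UMIs and -0.0115 without doublets. Limits of at least 10 C1q UMIs left a pool with under 10 cells and were not run for the age comparison, and the same held for cells without Cd209a, Mgl2 and Flt3.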
